A study of Mus musculus with 8 samples.

Results

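Memory T follicular helper (Tfh) cells of mice labelled Rictor-null were compared with those of wild-type (WT) mice on Affymetrix expression arrays. The samples were chosen by their labels: 2 Rictor-null Tfh arrays and 2 WT Tfh arrays, 4 of the 8 arrays of the study, with all genes that had an annotated probe set. The other 4 arrays held T helper 1 (Th1) cells of the same genotypes. They entered the estimate of spread between replicates, the filter on signal and the choice of 1 probe set per gene, but not the changes themselves. All cells were CD4 T cells sorted from spleen at day 60 after infection with LCMV Armstrong, a lymphocytic choriomeningitis virus strain that mice clear, so that infection is shared by both genotypes. Each array carried total RNA pooled from at least 10 mice and labelled as biotinylated cRNA from 100 ng. The labels call the arrays biological replicates, and the 4 Tfh arrays are written null-1, null-2, WT-1 and WT-2 after their replicate numbers. The sources used here do not give the Cre line or other means of deletion, the deleted part of Rictor, the strain, age and sex of the mice or the sort gates.

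Rictor is the defining subunit of mTOR complex 2, a kinase complex that phosphorylates AKT, SGK and protein kinase C family members downstream of growth factor, antigen and costimulatory receptors. AKT in turn keeps FOXO transcription factors out of the nucleus, and FOXO1 restrains the Tfh program in T cells. Tfh cells carry the B cell follicle receptor CXCR5, are directed by the repressor BCL6, and help B cells through IL-21, IL-4, CD40L and ICOS. The comparison asks which transcripts differ in memory Tfh cells labelled as lacking this subunit, in a study on mTOR complex 2 in CD4 T cell memory.

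The 4 Tfh arrays had median signals of 36.8 to 37.7. Replicates correlated across genes at Pearson r = 0.995 (Rictor-null) and 0.999 (WT), arrays of different genotype at 0.988 to 0.993; genes are not independent replicates. Replicates differed more in Rictor-null than in WT Tfh cells, with root mean square SDs of 0.109 and 0.0536 log2. CD4 T cell markers were high on all Tfh arrays, with Cd3d signals of 6176 to 6989 and Cd4 signals of 414 to 417. The Tfh markers Cxcr5 (179 to 297, against 46.8 to 55.7 on the Th1 arrays), Bcl6 (138 to 192 against 89.9 to 94.5) and Sh2d1a (766 to 1007 against 465 to 624) lay above every Th1 array, as did Tox2 and Ascl2, while the ranges of Pdcd1 (114 to 238 against 79.4 to 118), Icos (2067 to 2766 against 1888 to 2570) and Il21 (180 to 354 against 138 to 223) overlapped. Of the 5 Th1 markers, only Cxcr6 was lower on the Tfh arrays (255 to 342 against 357 to 489). Ranges overlapped for Tbx21 (422 to 465 against 444 to 463), Selplg, Il18rap and Ccl5, and Ccl5 was higher in WT Tfh than in WT Th1 cells (8163 and 8173 against 6436 and 6607). The brightest of 5 Rictor probe sets had signals of 563 and 576 on the Rictor-null arrays and 560 and 563 on the WT arrays, a log2 change of 0.02 ± 0.074 (SE, n = 2 arrays per group; limma adjusted p = 0.888). The other 4 gave log2 changes of -0.02, 0.03, 0.07 and 0.30, the last from a dim probe set with signals of 45.6 and 53.5 against 32.4 and 35.5 (adjusted p = 0.0353 over all probe sets). Their position against the deletion is unknown here, so they are no check of the genotype labels. In pooled bulk RNA, more cells of a kind and more RNA per cell cannot be told apart.

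Changes are given below as log2 changes, Rictor-null minus WT, of the signal plus 32, with standard errors from a limma fit to n = 2 arrays per group, and they understate the change of dim genes. A gene was said to have risen or fallen at a Benjamini-Hochberg adjusted p under 0.05 over all 11217 genes tested. Of these genes, 1528 (13.6%) passed: 1269 (11.3%) rose and 259 (2.31%) fell. The median change over all genes was 0.04. Most changes were small, with medians of 0.31 among rises and -0.26 among falls, and a change of 1 or more was reached by 24 rises and 1 fall. No gene that passed had overlapping arrays, so for the genes below, arrays that lie apart add nothing to the call. Of all genes tested, 59.6% had arrays that did not overlap, 39.9% higher and 19.7% lower in Rictor-null cells. At an unadjusted p under 0.05 there were 3397 genes.

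The split into rises and falls depended on the scaling between arrays. The share of rises among the genes that passed was 83.0% with the signals as deposited, 62.4% after quantile normalization (725 rose, 436 fell) and 41.1% after centring each array on its median (634 rose, 909 fell). Quantile normalization shifted the median change by -0.05 and centring shifted it by -0.09. Of the 1528 genes, 942 also passed in the same direction after quantile normalization and 893 after centring, and 0 had the opposite sign under either. Among genes that passed with a change of at least 0.5, rises stayed the larger group: 227 against 15 as deposited, 164 against 25 after quantile normalization and 138 against 29 after centring. Leaving out single arrays, always 1 at a time, moved the counts further. Without null-1 2839 genes passed (2070 rose, 769 fell), without null-2 774 (671 and 103), without WT-1 456 (427 and 29) and without WT-2 504 (458 and 46). Small changes are therefore given mainly as counts below, and the genes described at length are those with large changes.

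**Figure D1:**
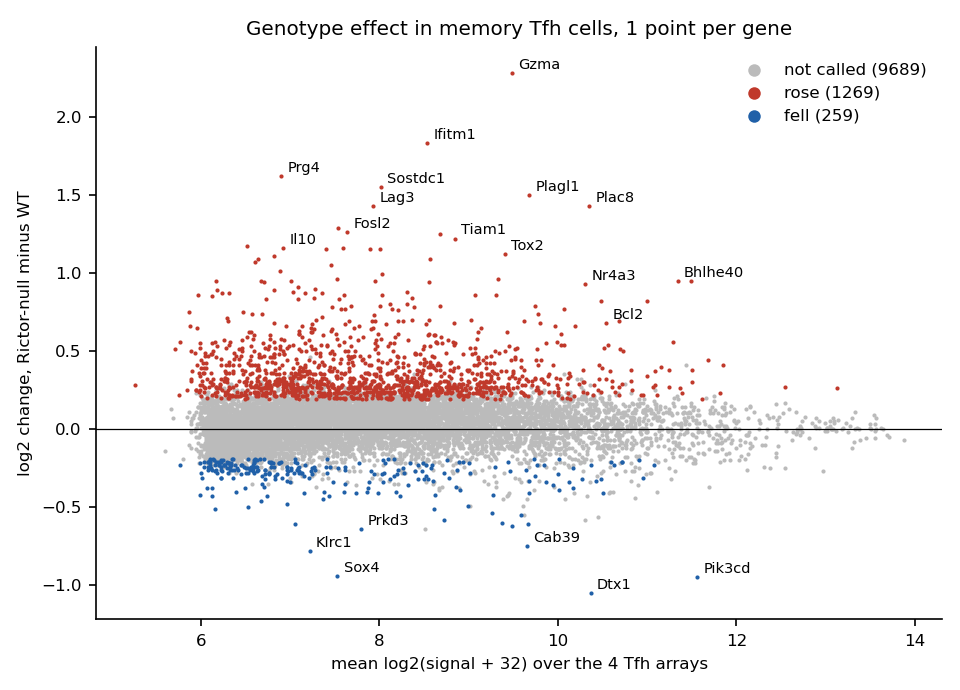
Log2 change between genotypes (vertical axis, Rictor-null minus WT) against the mean log2(signal + 32) over the 4 Tfh arrays (horizontal axis), 1 point per gene, with genes that rose in red, genes that fell in blue and the rest in grey. With the signals as deposited rises outnumber falls, 1269 to 259 (634 to 909 after median centring), and reach 2.28 (Gzma), while the largest fall is Dtx1 at -1.05.

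**Figure D2:**
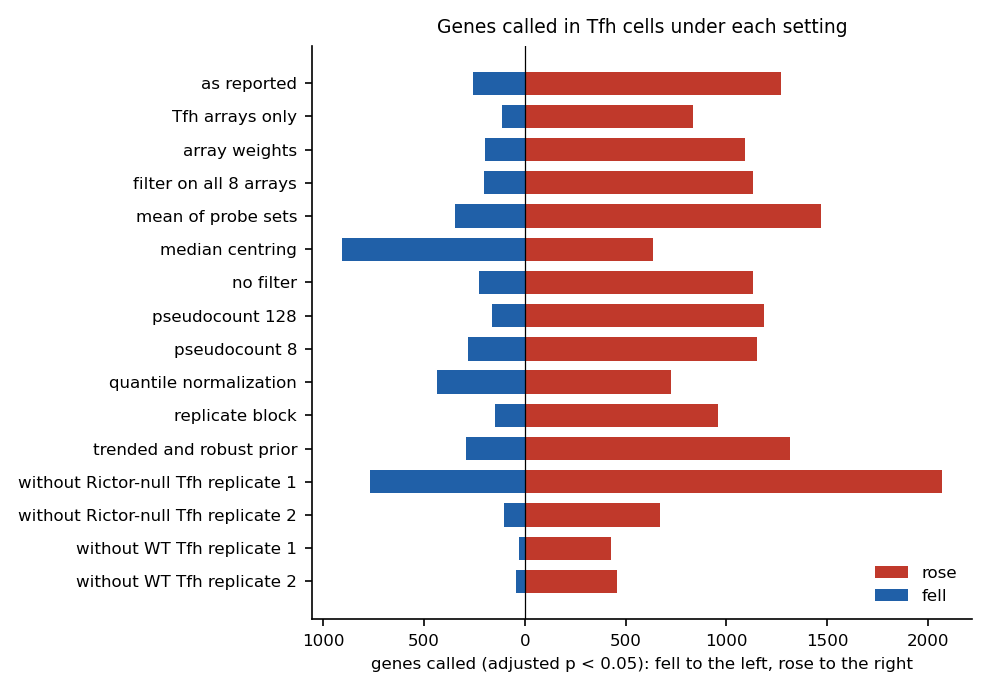
Number of genes that passed the limma test in Tfh cells under each setting, with rises drawn to the right and falls to the left of 0. The bars shrink without either WT Tfh array and grow without null-1, and with median centring the falls (909) exceed the rises (634).

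The largest rise was that of Gzma, which encodes granzyme A, a serine protease of cytotoxic granules (chromosome 13, 113093824 to 113100981, GRCm38.p6). Its signals were 1633 and 1472 in Rictor-null Tfh cells and 300 and 288 in WT Tfh cells. Both Rictor-null arrays lay far above both WT arrays, and the change was 2.28 ± 0.069, a 4.85-fold rise of the signal plus 32 (adjusted p = 4.48e-08). Ifitm1, an interferon-induced membrane protein that hinders virus entry, had signals of 669 and 663 against 165 and 163, a change of 1.83 ± 0.065. Prg4, which encodes the secreted proteoglycan lubricin, had 177 and 179 against 39.9 and 32.8 (1.62 ± 0.063). Sostdc1, whose secreted product blocks BMP and Wnt ligands, had 418 and 404 against 117 and 122 (1.55 ± 0.058), and its other probe set rose as well (1.46). The replicates of these 4 genes differed far less than the genotypes did, which also held for later genes such as Plac8 and Tiam1. Plagl1, a zinc finger transcription factor, had 1436 and 1261 against 465 and 447 (a 2.82-fold rise of the signal plus 32), with 0.93 at its other probe set. The inhibitory receptor Lag3, which binds MHC class II, had 341 and 396 against 117 and 116 (1.43 ± 0.086). Plac8, a small cysteine-rich protein, had 2054 and 2172 against 769 and 763 (1.43 ± 0.062) and was the brightest of the 12 largest rises. The largest rises were drawn from genes whose arrays did not overlap, so the genotypes were apart for each of them by choice.

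Next came Cd83, a surface protein of activated lymphocytes and dendritic cells, at 248 and 268 against 83.2 and 89.7 (1.29 ± 0.060). Fosl2, an AP-1 subunit, had 272 and 280 against 108 and 86.9 (1.26 ± 0.075), but its dimmer probe set gave -0.03. Cxcl10, a chemokine that attracts CXCR3-bearing cells, had 657 and 546 against 232 and 236 (1.25 ± 0.077). The genotypes did not overlap for any of these 3 genes, as held for every gene that passed. Tiam1, which activates the GTPase Rac, had 678 and 663 against 270 and 270 (1.22 ± 0.055). Klre1, a lectin-like receptor of natural killer (NK) cells, had 106 and 105 against 26.3 and 32 (1.17 ± 0.079). Both WT Tfh arrays lay below the array median for Klre1. The remaining genes among the 25 largest rises had changes between 0.99 and 1.16. They were the cytokine Il10, the interferon-induced Ifitm3, the NK-type receptor Klrg1, the fractalkine receptor Cx3cr1, the growth factor receptor Igf1r, the Tfh transcription factor Tox2, the decoy receptor Il1r2, the endoplasmic reticulum isomerase Pdia3, the lipid receptor S1pr5, the proteoglycan Spock2, the leucine zipper protein Tsc22d1, the phospholipase Plcb4 and the MAP kinase phosphatase Dusp4. Igf1r rose at 4 of its 5 probe sets (0.09 to 1.19), while the dim probe set of Pdia3 gave -0.05. Of the 6 probe sets of Tsc22d1, 3 rose (0.34 to 1.05) and the other 3, all dimmer than its brightest, gave 0.01 to 0.04. When a probe set had to lie above the median on all 8 arrays, Spock2 was represented by another probe set, with a change of 0.16 (adjusted p = 0.141).

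The largest fall was that of Dtx1, a ubiquitin ligase of the Deltex family linked to Notch signalling and T cell anergy (chromosome 5, 120680203 to 120711867). Its signals were 837 and 941 in Rictor-null and 1858 and 1893 in WT Tfh cells, a change of -1.05 ± 0.079 and a 2.07-fold fall (adjusted p = 1.67e-05). Its other, dim probe set gave -0.19 and did not pass. Sox4, a transcription factor of the HMG box family, had 99.9 and 103 against 219 and 228 (-0.94 ± 0.056). A further probe set of Sox4 fell (-0.43), and the remaining ones gave -0.21 and 0.00 without passing. Klrc1, which encodes the inhibitory receptor NKG2A, had 86.0 and 77.7 against 165 and 160 (-0.78 ± 0.067), and its other, dim probe set gave -0.14 without passing. The replicates of these 3 genes lay close together, with the Rictor-null arrays about level with each other and well below WT. Prkd3, a protein kinase D family member, had 141 and 153 against 240 and 252 (-0.64 ± 0.064) and fell at its other probe set too (-0.40). Igfbp4, which binds insulin-like growth factors, had 77.3 and 73.3 against 123 and 141 (-0.61 ± 0.073), but only 2 of its 6 probe sets fell. The others gave -0.10, -0.10, -0.32 and 0.01, the last with signals of 147 and 144 against 151 and 138. The linker histone gene H1f2 had 485 and 531 against 792 and 785 (-0.60 ± 0.060), with -0.95, which passed, and -0.15, which did not, at its other probe sets. Pag1, an adaptor that recruits the kinase CSK, had 615 and 587 against 904 and 890 (-0.55 ± 0.055) and fell at a further probe set (-0.25).

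Several other falls among the 12 largest rested on less. Pik3cd, the catalytic PI3K subunit p110 delta, had 2747 and 1673 against 4288 and 4045 (-0.95 ± 0.167, adjusted p = 0.00421), and its Rictor-null replicates stood far apart. Its other 3 probe sets were higher in Rictor-null cells (0.22, 0.27 and 0.45), and the mean over its probe sets gave 0.00 (adjusted p = 0.99). Cab39, a scaffold of the kinase LKB1, had 615 and 567 against 1143 and 898 (-0.75 ± 0.177, adjusted p = 0.0203). Its other probe set gave 0.00, and the call ended without null-2 (adjusted p = 0.0906) or WT-1 (0.168). The deubiquitinase Usp14 had 325 and 303 against 459 and 515 (-0.58 ± 0.071), with -0.09, 0.00 and 0.05 at its other probe sets and -0.16 (adjusted p = 0.0588) as the mean over them all. The deubiquitinase Usp25 had 777 and 506 against 1065 and 888 (-0.61 ± 0.159, adjusted p = 0.0303), and its other probe set gave -0.06 without passing. Sema4a, a semaphorin, had 570 and 396 against 762 and 657 (-0.54 ± 0.149, adjusted p = 0.0368), while its other probe set fell by 0.36. Usp25 and Sema4a did not pass without null-2 (adjusted p = 0.148 and 0.205), without WT-1 (0.211 and 0.225), without WT-2 (0.0664 and 0.0911) or without either Rictor-null Th1 array (0.058 and 0.0626). The 8 falls that followed were between -0.51 and -0.43. The other probe sets of Tbcel and Afp gave -0.11 and -0.14 without passing, while that of Cd163l1 fell (-0.31). Both Rictor-null arrays lay below the array median for Afp and Hectd2. The 8 genes were Tbcel, Afp, Klk1b27, Arid1b, the ceramide synthase Cers6, Lypd6b, the scavenger receptor Cd163l1 and the ubiquitin ligase Hectd2. Of these, Tbcel (0.0719) and Afp (0.0666) did not pass without WT-1. Arid1b, a subunit of the BAF chromatin remodelling complex, did not pass without that array (0.0555), WT-2 (0.121) or null-2 (0.0576).

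**Figure D3:**
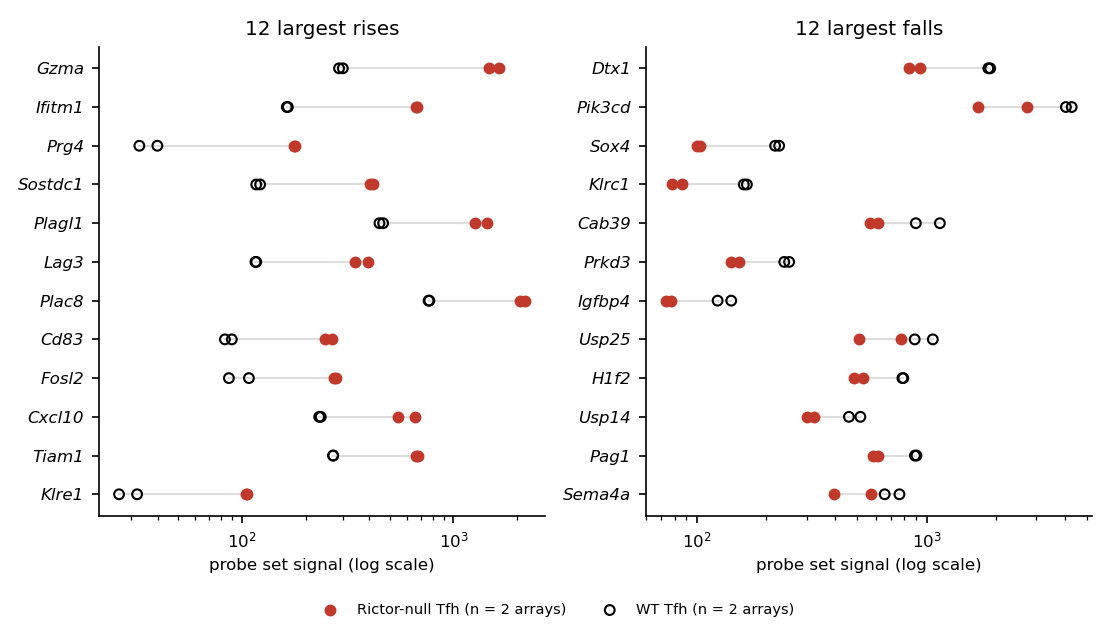
Probe set signals on a log axis for the 12 largest rises (left) and the 12 largest falls (right), with 1 filled red circle per Rictor-null Tfh array and 1 open circle per WT Tfh array, 2 of each per gene. The 2 genotypes are apart in each row because the genes were chosen that way. The circles of 1 genotype lie farthest from each other for Pik3cd, Usp25 and Sema4a.

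Where genes had several probe sets, the rises were better matched than the falls with the signals as deposited. This was not recounted after rescaling, and no share over all probe sets stands beside it. Among all genes tested, 39.9% had arrays apart and higher in Rictor-null cells, against 19.7% lower. Of the 1269 genes that rose, 574 had at least 2 probe sets, all probe sets shared the sign for 423 of them, and 0 had a probe set that passed in the opposite direction. Of the 941 other probe sets of these genes, 82.6% shared the sign, with a median change of 0.16. Of the 259 genes that fell, 108 had at least 2 probe sets, 71 shared the sign throughout and 2 had a probe set that passed in the opposite direction. Their 186 other probe sets shared the sign in 73.1%, with a median of -0.09. Among all 19671 probe sets with 1 gene symbol, 10.2% passed. The survival gene Bcl2 passed at all 5 of its probe sets (0.41 to 0.68), as did the vesicle protein Syt11 (0.42 to 0.61) and the uridyl transferase Tut4 (0.28 to 0.43; not without WT-1, adjusted p = 0.106). The G protein subunit Gnaq (0.44 to 0.79) and the actin regulator Mtss1 (0.32 to 0.70) passed at 4 of 5. Among falls, the phosphatase Ptpn12 passed at 3 of 4 (-0.42 to -0.06) and the chromatin organiser Satb1 at 3 of 5 (-0.45 to -0.11).

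**Figure D4:**
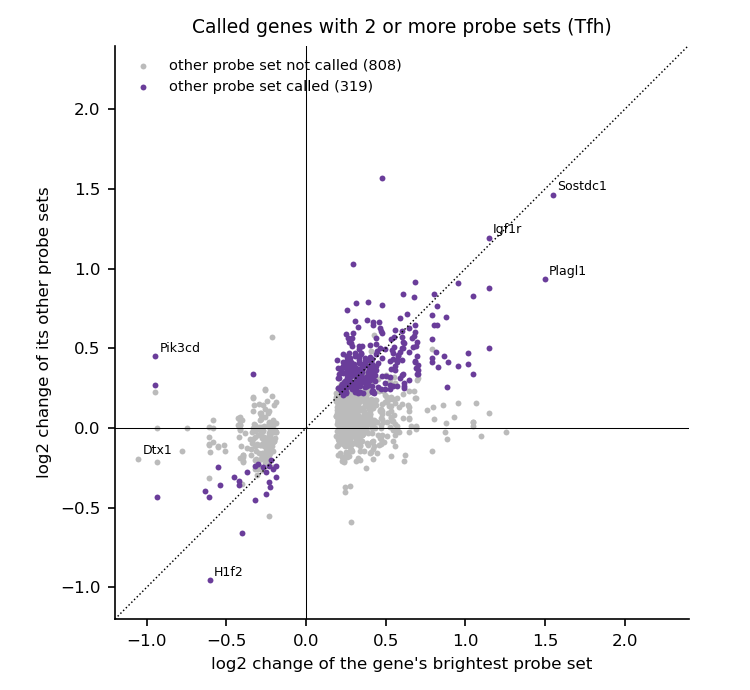
Log2 change of each other probe set of a gene (vertical axis) against that of the gene's brightest probe set (horizontal axis), for genes that passed the test, with other probe sets that passed in purple (319) and the rest in grey (808); the dotted line marks equal change. Most points right of 0 lie above the horizontal line, and Pik3cd lies on the left with other probe sets above it.

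Some receptor and regulator genes of Tfh cells rose, and with the signals as deposited none of them fell. Counts in this and the later groups stand against 11.3% of all genes that rose and 2.31% that fell. Of 16 surface receptors and ligands of Tfh cells, 10 rose and 0 fell, with a median change of 0.43 (all genes 0.04, of which 11.3% rose); after median centring 9 rose and 2 fell. Cxcr5, which guides T cells into B cell follicles, had signals of 241 and 297 against 183 and 179, a change of 0.49 ± 0.086. Pdcd1, which encodes the inhibitory receptor PD-1, had 212 and 238 against 123 and 114 (0.77 ± 0.070). Icos, the costimulator that Tfh cells need, had 2734 and 2766 against 2130 and 2067 (0.38 ± 0.059). All of these lay above WT on both arrays, as did every gene that rose. Larger rises were those of the TNF family members Tnfrsf4, which encodes OX40 (807 and 929 against 418 and 444, 0.96 ± 0.085), and Tnfsf8, which encodes CD30 ligand (793 and 854 against 450 and 427, 0.86 ± 0.112). The folate receptor family gene Izumo1r rose by 0.61, the ATP receptor P2rx7 by 0.53 and the IL-6 receptor signal chain Il6st by 0.47, the last not passing as the mean of its probe sets (adjusted p = 0.0623). Cd40lg, the ligand by which Tfh cells license B cells, was dim (37.3 and 37.0 against 45.1 and 42.6) and did not pass at -0.13 ± 0.058 (adjusted p = 0.147).

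Of 23 transcriptional regulators of Tfh cells, 10 rose and 0 fell, with a median of 0.14. After quantile normalization and after centring, 7 rose and 2 fell, with medians of 0.11 and 0.06. The count of rises was 6 without WT-1 and 6 without WT-2. Tox2, which opens chromatin at Tfh genes, had 897 and 1045 against 428 and 432, a change of 1.12 ± 0.077. Bcl6, the defining repressor of the lineage, had 192 and 186 against 138 and 143 (0.36 ± 0.055). Ascl2, an inducer of Cxcr5, had 43.1 and 40.5 against 25.9 and 25.3 (0.36 ± 0.059). Both Rictor-null arrays were higher for each, as for every gene that rose. Ascl2 was near the array median and lay above it only on the Rictor-null Tfh arrays. It thus passed the signal filter only through the arrays where it was high. Id3, an inhibitor of E proteins, rose by 0.69 ± 0.085, and the receptor-induced factors Irf4 and Batf rose by 0.48 ± 0.067 and 0.42 ± 0.073. Maf, which drives Il21, varied between replicates (2091 and 1481 against 1722 and 1543) and gave 0.11 ± 0.149. Prdm1, the BLIMP1 gene that opposes Bcl6, gave 0.12 ± 0.060 (adjusted p = 0.221). Of 8 SLAM family receptors and adaptors that passed the signal filter, of 9 on the array, Slamf6 rose by 0.34 ± 0.059, and Sh2d1a, the adaptor SAP, rose by 0.32 ± 0.057 (1007 and 958 against 793 and 766). Sh2d1a did not pass without WT-2 (adjusted p = 0.0654), and 0 members fell.

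Cytokine and other secreted protein genes rose in 16 of 26 tested members and fell in 0, with a median of 0.32 (15 rises and 3 falls after quantile normalization, 13 and 3 after centring); 5 further members on the array lay below the signal filter. Il21, the main helper cytokine of Tfh cells, had 354 and 319 against 180 and 180, a change of 0.80 ± 0.070. Il4, the cytokine of class switching to IgG1 and IgE, was dim but apart (41.9 and 43.5 against 22.6 and 23.7, 0.44 ± 0.065). Both WT Tfh arrays lay below the array median for Il4. Il10 had 154 and 146 against 47.2 and 51.3 (1.16 ± 0.062). Csf1, the macrophage growth factor, rose by 0.88 ± 0.080 (141 and 151 against 72.2 and 57.6). Its other probe sets gave 0.255, which passed, and -0.071, which did not. Ifng, the defining Th1 cytokine, did not pass: 1589 and 1564 against 1588 and 1605, a change of -0.02 ± 0.057 (adjusted p = 0.864). The rises thus covered Tfh cytokines and chemokines, with Ifng level across the 4 arrays.

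Of 23 tested genes of the Th1 program, 9 rose and 0 fell, with a median of 0.10; after median centring 7 rose and 1 fell, with a median of 0.02. The defining factor Tbx21, which encodes T-bet, gave 0.08 ± 0.056 (465 and 439 against 430 and 422, adjusted p = 0.367), and the Th1 chemokine receptor Cxcr3 gave -0.07 ± 0.071. Klrg1 had 329 and 374 against 142 and 140 (1.15 ± 0.071), and Cx3cr1 had 224 and 216 against 79.2 and 84.6 (1.15 ± 0.094). S1pr5, a sphingosine phosphate receptor, had 113 and 115 against 35.0 and 38.5 (1.09 ± 0.066). Bhlhe40, a repressor that sustains cytokine production, had 3478 and 3706 against 1849 and 1836 (0.95 ± 0.057). Each was roughly level between replicates and higher on both Rictor-null arrays. The IL-2 and IL-15 receptor chain Il2rb rose by 0.53 ± 0.061, with 0.18 at its other probe set, which did not pass. The T-box factor Eomes rose by 0.33 ± 0.075, with 0.51 at its other probe set, which passed. Eomes did not pass without WT-2 (a change of 0.27) or after median centring (adjusted p = 0.0713).

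Of 19 cytotoxic granule genes, 6 rose and 0 fell, with a median of 0.12 that went to 0.03 after median centring. Apart from Gzma they were Stx11, a syntaxin of granule fusion (409 and 384 against 197 and 206, 0.88 ± 0.058), the granzymes Gzmb (272 and 298 against 157 and 161, 0.73 ± 0.060) and Gzmk (1823 and 1759 against 1262 and 1176, 0.54 ± 0.092), the pore protein Prf1 (178 and 202 against 132 and 127, 0.45 ± 0.086) and the lysosomal membrane gene Lamp2 (0.39 ± 0.075). The other probe set of Prf1 gave -0.04 without passing. Without WT-2, Prf1 (adjusted p = 0.0679) and Lamp2 (0.104) did not pass. Of 10 tested NK lectin-like receptors and partners, 4 rose and 1 fell (4 and 2 after centring), with 6 more below the signal filter. The activating receptor NKG2D gene Klrk1 rose by 0.46 ± 0.056 (314 and 317 against 213 and 228). The shared subunit gene Klrd1 gave 0.28 ± 0.056, not passing without WT-1 (0.0611) or WT-2 (0.103), while its inhibitory partner Klrc1 fell. Markers of CD8 T and NK cells moved alongside these genes. Over 8 such markers on the array, of which 6 passed the filter and 4 rose, the summed signal was 1662 and 1533 against 1303 and 1220. The rises numbered 0 without WT-2, 2 without WT-1 and 2 after median centring. Of the defining markers, Cd8b1 had 58.3 and 62.5 against 45.2 and 43.3 (0.28 ± 0.057), Cd8a had 44.8 and 43.6 against 47.3 and 49.2 (-0.07 ± 0.073), and Ncr1 lay below the filter at 25.6 to 27.5. Cd8b1 did not pass without null-2 (0.052), WT-1 (0.0752) or WT-2 (0.116). The part of other cells in these changes was not tested.

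Inhibitory receptors rose in 5 of 13 tested members and fell in 2, with a median of 0.14. Besides Lag3 and Pdcd1, Ctla4, which competes with CD28 for its ligands, had 2068 and 2053 against 1280 and 1256 (0.69 ± 0.055). Nt5e, the ectoenzyme CD73 that makes adenosine, had 1092 and 1097 against 746 and 732 (0.55 ± 0.059), and the PD-1 ligand gene Pdcd1lg2 rose by 0.46 ± 0.060. The other probe sets of Nt5e gave -0.015 and 0.044 without passing. The collagen receptor Lair1 fell by 0.29 (100 and 109 against 127 and 145), and this call ended without WT-2 (adjusted p = 0.214); the falls then numbered 0, and 1 without any other single Tfh array. Of 16 costimulatory receptors and ligands, 6 rose and 1 fell (5 and 2 after quantile normalization, 5 and 3 after centring), with a median of 0.04 that turned to -0.04 after median centring. Tnfrsf18, which encodes GITR, rose by 0.44 ± 0.068. Cd96, a nectin family receptor, fell by 0.33 (702 and 693 against 892 and 872), not passing without WT-1 (0.0735). Cd28 itself gave -0.18 ± 0.061 (2348 and 2279 against 2724 and 2528, adjusted p = 0.076).

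Of 14 tested markers of regulatory T cells, 8 rose and 0 fell (7 and 1 after centring), with a median of 0.44, the highest of the 33 gene groups described here. Ikzf2, which encodes Helios, had 1850 and 1893 against 1051 and 1048 (0.82 ± 0.064). Capg, an actin capping protein, rose by 0.59 ± 0.062, and the others that rose included Il10, Tnfrsf4, Ctla4, Izumo1r and Tnfrsf18, which activated T cells and Tfh cells also express. The defining factor Foxp3 lay below the signal filter at 27.5 and 41.5 against 18.7 and 22.9 (0.32 ± 0.114, adjusted p = 0.136 without the filter). Il2ra, the high-affinity IL-2 receptor chain, was dim at 38.4 and 37.2 against 31.6 and 33.1 (0.12 ± 0.054, adjusted p = 0.172). The part of regulatory T cells in these changes was not tested.

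Genes induced early after T cell receptor signals rose in 16 of 34 members and fell in 0, with a median of 0.18; without WT-1 or WT-2 10 rose. After quantile normalization 11 of these genes rose and 0 fell, with a median of 0.15, and after centring 11 rose and 1 fell, with a median of 0.10. Nr4a3, an orphan nuclear receptor, had 1627 and 1805 against 865 and 904 (0.93 ± 0.064). Dusp4, which dephosphorylates MAP kinases, had 320 and 351 against 156 and 149 (0.99 ± 0.061). Egr2, a zinc finger factor of anergy and Tfh cells, had 205 and 204 against 144 and 139 (0.45 ± 0.055). The stress genes Ier3 (0.66 ± 0.064) and Atf3 (0.59 ± 0.066) rose as well. Other members did not pass or did so only in part: Fos, which is also induced by cell handling, gave 0.17 ± 0.057 (6184 and 6432 against 5582 and 5645, adjusted p = 0.0789), Cd69 varied between replicates (2112 and 1265 against 2101 and 1862), and Nr4a1 (0.24 ± 0.062) did not pass without null-2 (0.109) or either WT array (0.0957 and 0.239). The receptor complex and its proximal signalling genes did not share this direction. Of them 18.8% passed, against 13.6% of all genes (11.3% rose and 2.31% fell). Of 32, 3 rose and 3 fell, with a median of -0.02, without null-2 2 rose and 1 fell, and without either WT Tfh array 1 rose and 1 fell. The split was 1 rise and 6 falls after quantile normalization and 1 and 8 after centring, with medians of -0.07 and -0.10. Prkcq, the theta isoform of protein kinase C at the synapse, had 1862 and 2027 against 1363 and 1346 (0.51 ± 0.062), Prkd3 fell, and Cd3e gave 0.07 ± 0.058. The other 4 that passed (Ubash3b, Trat1, Rasgrp1 and Themis) did not pass without either WT Tfh array (adjusted p from 0.121 to 0.247).

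In a group of mTOR complex and related genes, 2 of 22 tested members rose (9.09%, against 11.3% of all genes) and 0 fell (2 and 1 after centring). The median of 0.07 turned to -0.01 after quantile normalization and -0.02 after centring. Prr5l, an mTOR complex 2 subunit also called PROTOR2, had 116 and 129 against 48.9 and 54.1, a change of 0.89 ± 0.084. Rps6, which is not a subunit of either complex but the ribosomal protein that S6 kinase phosphorylates, had 654 and 656 against 471 and 461 (0.46 ± 0.056). Both were apart from WT with little spread between replicates. The mTOR complex 2 subunit Mapkap1, which encodes SIN1, gave 0.05 ± 0.061, and the kinase Mtor gave -0.01 ± 0.058.

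Of 30 genes of PI3K, AKT and related kinases, 10 rose and 1 (Pik3cd) fell (36.7%, against 13.6% of all genes), with a median of 0.15. The number of rises depended on single arrays, with 12 without null-1, 4 without null-2, 3 without WT-1 and 2 without WT-2, and it was 4 after either rescaling, with 1 fall after quantile normalization and 2 after centring. The rises with the larger changes were Inpp4b, a phosphoinositide phosphatase (361 and 346 against 193 and 198, 0.76 ± 0.169), and Trib1, a pseudokinase (182 and 192 against 113 and 107, 0.63 ± 0.087). The other probe set of Inpp4b gave 0.11 without passing. Inpp4b did not pass without WT-1 (adjusted p = 0.0964) or WT-2 (0.0876). Akt1 gave 0.05 ± 0.066 (234 and 241 against 230 and 227) and Sgk1, the AGC kinase that mTOR complex 2 activates, gave -0.02 ± 0.089. Akt2 rose by 0.24 ± 0.065 as deposited but not without null-2 (0.157), WT-1 (0.0719), WT-2 (0.267) or either Rictor-null Th1 array (0.0521).

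FOXO factors and genes they regulate rose in 9 of 24 members and fell in 0, with a median of 0.13; 5 rose without WT-1, 4 without WT-2, 7 after quantile normalization and 6 after centring, with 1 fall after either rescaling. Gadd45b, a stress-induced signalling protein, had 2701 and 2669 against 1512 and 1495 (0.82 ± 0.054). Irs2, an adaptor of insulin receptors, had 102 and 113 against 66.3 and 69.7 (0.48 ± 0.063). The zinc finger factor Klf4 had 2212 and 1787 against 1428 and 1372 (0.50 ± 0.097), with adjusted p = 0.05 without WT-1 and 0.0764 without WT-2. The classical FOXO1 targets of resting T cells did not pass. Il7r gave -0.08 ± 0.061 (4162 and 4339 against 4407 and 4553), Klf2, a factor of lymphoid recirculation, gave -0.10 ± 0.071, and Ccr7, the lymph node homing receptor, gave 0.14 ± 0.055 (adjusted p = 0.108). Foxo1 itself was lower on both Rictor-null arrays (580 and 543 against 666 and 622) without passing (-0.19 ± 0.062, adjusted p = 0.0717).

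Factors of memory and effector fate went both ways, with 7 rises and 5 falls in 25 members and a median of 0.03 that turned to -0.05 after quantile normalization and -0.06 after centring. The falls numbered 3 without WT-1, 3 without WT-2 and 7 without null-1, and the rises 4 without WT-2, 5 after quantile normalization and 4 after centring. Bach2, a repressor that keeps T cells from effector differentiation, had 379 and 370 against 492 and 497 (-0.37 ± 0.054). Satb1 had 1286 and 1205 against 1573 and 1560 (-0.32 ± 0.064), with adjusted p = 0.0836 without WT-1 and 0.0703 without WT-2. Sox4 and Dtx1, described above, belong to this group. Bcl2, which blocks mitochondrial apoptosis, had 1771 and 1948 against 1109 and 1183 (0.68 ± 0.064), and Id3 and Ikzf2 rose. Replicates of these genes lay on the same side each time, as for every gene that passed. In the Notch pathway, 4 of 17 tested genes rose and 1 fell (29.4%, against 13.6% of all genes). After either rescaling 2 rose and 1 fell, with a median of -0.02, from 0.06. Rbpj, the DNA-binding factor of Notch signalling, had 477 and 464 against 358 and 379 (0.33 ± 0.057), and its target Nrarp had 123 and 143 against 90.0 and 101 (0.37 ± 0.078). Without WT-1 neither passed (adjusted p = 0.0692 and 0.12), and Nrarp did not pass without null-2 (0.0666); the rises of the group then numbered 0 and 1, against 2 without WT-2 and 7 without null-1. Notch1 gave 0.13 ± 0.075 (adjusted p = 0.263) while Dtx1 fell.

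Homing and adhesion genes rose in 9 of 29 tested members and fell in 2 (37.9%, against 13.6% of all genes), with a median of 0.10. After centring 6 rose and 4 fell, with a median of 0.01. Ccr9, the gut homing chemokine receptor, had 66.8 and 69.8 against 20.1 and 19.4, a change of 0.95 ± 0.059, with both WT Tfh arrays below the array median. Cxcr4, the receptor for CXCL12, had 1468 and 1299 against 821 and 771 (0.77 ± 0.068). Icam1, the LFA-1 ligand, had 554 and 544 against 337 and 326 (0.68 ± 0.055). Each of these was higher on both Rictor-null arrays by more than the replicates differed. Ccr2, an inflammatory chemokine receptor, had 236 and 201 against 278 and 280 (-0.32 ± 0.080), and no fall in the group passed without null-2, WT-1 or WT-2 (Ccr2 adjusted p = 0.149, 0.138 and 0.154). S1pr1, the receptor for lymphoid egress, gave 0.24 ± 0.103 (adjusted p = 0.152).

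Of 35 cytokine receptors and feedback genes, 13 rose and 1 fell, with a median of 0.12 (8 and 1 after quantile normalization, 7 and 2 with a median of 0.03 after centring); 7 rose without either WT Tfh array, and 0 fell without null-1 or either WT Tfh array. The Pim kinases, survival kinases downstream of STAT5, moved together. Pim2 had 388 and 435 against 210 and 220 (0.84 ± 0.075), Pim1 had 2976 and 3049 against 1966 and 2106 (0.56 ± 0.058), and Pim3 had 877 and 862 against 659 and 660 (0.38 ± 0.053). Socs2, a feedback inhibitor of JAK and STAT signals, had 141 and 167 against 87.0 and 91.3 (0.62 ± 0.082). Its other probe sets gave 0.53, which passed, and -0.21, which did not. The IL-10 receptor chain Il10ra rose by 0.39 ± 0.057, and Il21r gave 0.11 ± 0.065 (adjusted p = 0.279).

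Of 36 interferon-stimulated genes, 16 rose and 0 fell, with a median of 0.15. The rises numbered 10 without null-2, 9 without WT-1, and 12 and 11 after quantile normalization and centring. Besides Ifitm1, Ifitm3 had 277 and 238 against 99.6 and 95.3 (1.16 ± 0.094), and its neighbour Ifitm2 had 92.4 and 108 against 51.3 and 43.3 (0.74 ± 0.083). These 3 genes encode small membrane proteins that restrict virus entry, and probe sets of such similar genes may share signal. Bst2, the tetherin gene, had 199 and 163 against 80.6 and 83.2 (0.90 ± 0.091). The RNA-binding antiviral proteins Ifit3 (154 and 153 against 94.9 and 102, 0.51 ± 0.058) and Ifit1 (206 and 235 against 140 and 153, 0.50 ± 0.074) and the guanylate-binding GTPase Gbp3 (613 and 569 against 420 and 408, 0.48 ± 0.066) rose as well. The Rictor-null arrays lay above both WT arrays for each, as for every gene that rose.

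Interferons act on such genes through the interferon-stimulated response element, a short motif in their promoters. The 250 bases before the RefSeq start site (GRCm38.p6) are shown for members that rose, to set promoters with this element beside the member with the largest rise. Capitals mark the core of the element, read as GAAA, any 2 bases and GAAA, or as TTTC, any 2 bases and TTTC for the opposite strand, and sequences are written 5′ to 3′ along the gene's strand.
Ifit1, chr19:34640639-34640888, plus strand: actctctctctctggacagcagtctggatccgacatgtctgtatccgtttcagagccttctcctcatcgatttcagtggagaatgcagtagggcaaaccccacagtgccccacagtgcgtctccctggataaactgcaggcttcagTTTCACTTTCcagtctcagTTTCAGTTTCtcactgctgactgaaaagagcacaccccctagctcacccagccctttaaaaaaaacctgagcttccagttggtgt
Ifit3, chr19:34583279-34583528, plus strand: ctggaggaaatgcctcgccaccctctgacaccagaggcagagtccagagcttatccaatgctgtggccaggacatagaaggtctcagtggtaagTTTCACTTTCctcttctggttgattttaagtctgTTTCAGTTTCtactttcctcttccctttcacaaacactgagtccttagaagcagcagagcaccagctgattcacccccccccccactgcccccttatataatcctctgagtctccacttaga
Bst2, chr8:71537473-71537722, minus strand: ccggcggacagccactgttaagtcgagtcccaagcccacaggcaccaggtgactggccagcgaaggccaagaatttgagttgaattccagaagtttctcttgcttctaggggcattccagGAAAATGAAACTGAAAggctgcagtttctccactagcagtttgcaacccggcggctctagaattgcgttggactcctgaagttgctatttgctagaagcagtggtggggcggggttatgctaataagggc
Gbp3, chr3:142559794-142560043, plus strand: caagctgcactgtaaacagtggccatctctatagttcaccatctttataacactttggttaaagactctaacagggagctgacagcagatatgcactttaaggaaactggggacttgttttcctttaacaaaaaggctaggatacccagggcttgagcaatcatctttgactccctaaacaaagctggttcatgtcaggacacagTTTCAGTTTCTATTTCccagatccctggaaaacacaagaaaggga
Ifitm1, chr7:140967826-140968075, plus strand: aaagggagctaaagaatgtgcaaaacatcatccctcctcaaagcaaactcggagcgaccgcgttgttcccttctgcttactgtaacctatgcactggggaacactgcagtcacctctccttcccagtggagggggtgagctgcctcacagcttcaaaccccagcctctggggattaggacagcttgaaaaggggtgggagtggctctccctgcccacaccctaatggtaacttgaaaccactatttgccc
Ifit1 and Ifit3 each held 2 separate matches, beginning 104 and 85, and 156 and 122 bases before the start site, and Bst2 and Gbp3 each held 2 overlapping ones, beginning 130 and 124, and 45 and 39 bases before it. The table holds a further start site of Gbp3, whose window held 0 matches. The window of Ifitm1 held 0, which says only that these letters are not in this window. Counted over windows from 250 bases before to 50 after a start site, on both strands, the match was in 3.44% of 32851 promoters. By gene it was in 9 of 13 members of the list that rose and had a promoter in the table, in 8 of 15 members that did not pass, in 4.66% of 1029 genes that rose and in 3.68% of 9083 genes tested. Members that rose and members that did not thus both held the match often, as the list was made of known interferon targets, and a match is not evidence of binding.

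Of 24 tested genes of the BCL2 family and death regulators, 7 rose and 1 fell (33.3%, against 13.6% of all genes). The median was 0.10 (3 and 1 after quantile normalization, 3 and 2 with a median of 0.01 after centring). The rises numbered 4 without null-2 and 3 without either WT Tfh array, and the falls 0 without any of these 3. Apart from Bcl2, the pro-apoptotic Bid (161 and 172 against 121 and 119, 0.38 ± 0.065) and the inflammatory caspase Casp4 (1080 and 994 against 814 and 808, 0.34 ± 0.059) rose. Mcl1, a survival protein of T cells, gave -0.03 ± 0.066. Ferroptosis and antioxidant genes, which concern the iron-dependent death by lipid peroxidation, rose in 4 of 33 tested members (12.1%, against 11.3% of all genes) and fell in 0, with 11 more members below the filter. Their median of 0.04 was that of all genes and turned to -0.04 after quantile normalization and -0.05 after centring, which gave 3 rises and 2 falls. Gpx4, the peroxidase that defends membranes, had 1026 and 1137 against 982 and 993 (0.13 ± 0.067, adjusted p = 0.238). The cystine transporter Slc7a11 lay below the filter at 10.6 to 14.1, while its partner Slc3a2 rose by 0.36 ± 0.065 (1172 and 1284 against 957 and 945). Acsl4, which loads membranes with oxidisable fatty acids, varied between the Rictor-null replicates (320 and 184 against 310 and 285) and gave -0.26 ± 0.192 (adjusted p = 0.39), and the transferrin receptor Tfrc gave 0.02 ± 0.055. Scd2, a desaturase, had 425 and 432 against 269 and 274 (0.60 ± 0.055), and the mitochondrial superoxide dismutase Sod2 rose by 0.31 ± 0.058. The other probe set of Scd2 gave 0.15 without passing, and those of Sod2 gave 0.30, which passed, and 0.14, which did not. Without WT-2 only Scd2 rose: Slc3a2 (adjusted p = 0.0596), Sod2 (0.0792) and Gch1 (0.20) did not pass. Without WT-1 Slc3a2 (0.0514) and Gch1 (0.121) did not pass, and without null-1 6 genes rose and 4 fell.

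Metabolic genes changed in part. Of 21 genes of glycolysis and glucose uptake, 6 rose and 0 fell (median 0.13), with 2 and 3 rises without WT-1 and WT-2 and 3 rises with 1 fall after either rescaling. The neuronal-type glucose transporter Slc2a3 had 1225 and 1288 against 880 and 833 (0.54 ± 0.063), and the enzyme Tpi1 had 298 and 313 against 211 and 202 (0.50 ± 0.056). Slc2a1, the main transporter of activated T cells, gave 0.16 ± 0.099, and Ldha gave 0.00 ± 0.064. Of 12 tested amino acid transporters, 5 rose and 0 fell (median 0.15), with 2 rises without either WT Tfh array. Slc43a1, a carrier of large neutral amino acids, had 146 and 167 against 88.0 and 93.2 (0.62 ± 0.078), and the cationic carrier Slc7a1 had 780 and 914 against 583 and 584 (0.51 ± 0.078). The other probe set of Slc7a1 gave 0.09 without passing. Of 23 sterol and fatty acid synthesis genes, 5 rose and 1 fell (median 0.17), with 3 rises after centring or without null-2 or either WT Tfh array and 10 without null-1, and no fall without either WT Tfh array. The sterol demethylase Cyp51 rose by 0.38 ± 0.057 and the elongase Elovl6 by 0.35 ± 0.058. Fatty acid oxidation and mitochondrial dynamics genes passed in 3 of 26 (11.5%), all rises, and in 0 under quantile normalization, centring, or without null-2 or either WT Tfh array; their median of 0.07 turned to -0.02 after centring. Cpt1a, the rate-limiting carnitine transferase, gave 0.02 ± 0.056.

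In the S100, annexin and galectin group, 4 of 16 tested genes rose and 1 fell (31.2%, against 13.6% of all genes). The group was wider than its name, and the rises Lmna and Ahnak belong to none of these 3 families. The median of 0.08 turned to -0.01 after centring (3 rises, 2 falls). Lmna, which encodes nuclear lamin A, had 151 and 175 against 72.2 and 76.7 (0.87 ± 0.081), but its other probe set gave -0.03 without passing. Anxa2 had 1015 and 1193 against 633 and 608 (0.79 ± 0.075), with 0.13 at its other probe set, which did not pass. The galectin Lgals3 had 1075 and 1135 against 659 and 635 (0.74 ± 0.062). Ahnak rose by 0.23 ± 0.059 as deposited but did not pass after quantile normalization (adjusted p = 0.0542) or centring (0.109). In contrast, Anxa1 had 193 and 183 against 256 and 266 (-0.41 ± 0.077, not passing without WT-2, adjusted p = 0.0684), and S100a4 gave -0.11 ± 0.059. Of 17 genes of RGS proteins and G protein signalling, 4 rose and 0 fell, with a median of 0.05 that turned to -0.03 after either rescaling (3 and 1 after quantile normalization, 3 and 2 after centring); 1 rose without WT-1 and 2 without WT-2. The prostaglandin receptor Ptger2 had 137 and 139 against 79.0 and 76.6 (0.63 ± 0.057), and Rgs16 had 1112 and 837 against 568 and 608 (0.69 ± 0.120, adjusted p = 0.0502 without WT-1). Of 31 tested proliferation genes, 4 rose (12.9%, against 11.3% of all genes) and 0 fell, with 9 rises without null-1 and 2 after quantile normalization or without null-2 or WT-2. Cdk6, a G1 kinase, had 610 and 609 against 438 and 437 (0.45 ± 0.059), and the survivin gene Birc5 rose by 0.41 ± 0.064.

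The unfolded protein and integrated stress response (4 rises and 1 fall in 24 tested genes), heat shock proteins (3 rises in 18), histone and DNA modifying enzymes (3 rises and 1 fall in 26) and Gimap GTPases (1 rise in 8) had medians of 0.09, 0.03, 0.01 and 0.10; those of the heat shock and histone groups turned negative after either rescaling. The shares that passed were 20.8%, 16.7%, 15.4% and 12.5%, against 13.6% of all genes. After centring the stress response held 1 rise and 2 falls, the heat shock group 1 and 2, and the histone group 1 and 1. Most of these calls were lost without single arrays, with 1 rise left in the stress response without null-2 or either WT Tfh array, and 0 in the other 3 groups without either WT Tfh array. Pdia3 was the exception in size (502 and 542 against 236 and 219, 1.09 ± 0.128). The sensor chaperone Hspa5 gave 0.04 ± 0.055, the heat shock protein Hspa1a gave -0.05 ± 0.098 and the methyltransferases Ezh2 and Dnmt3a gave 0.01 ± 0.060 and 0.04 ± 0.057.

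**Figure D5:**
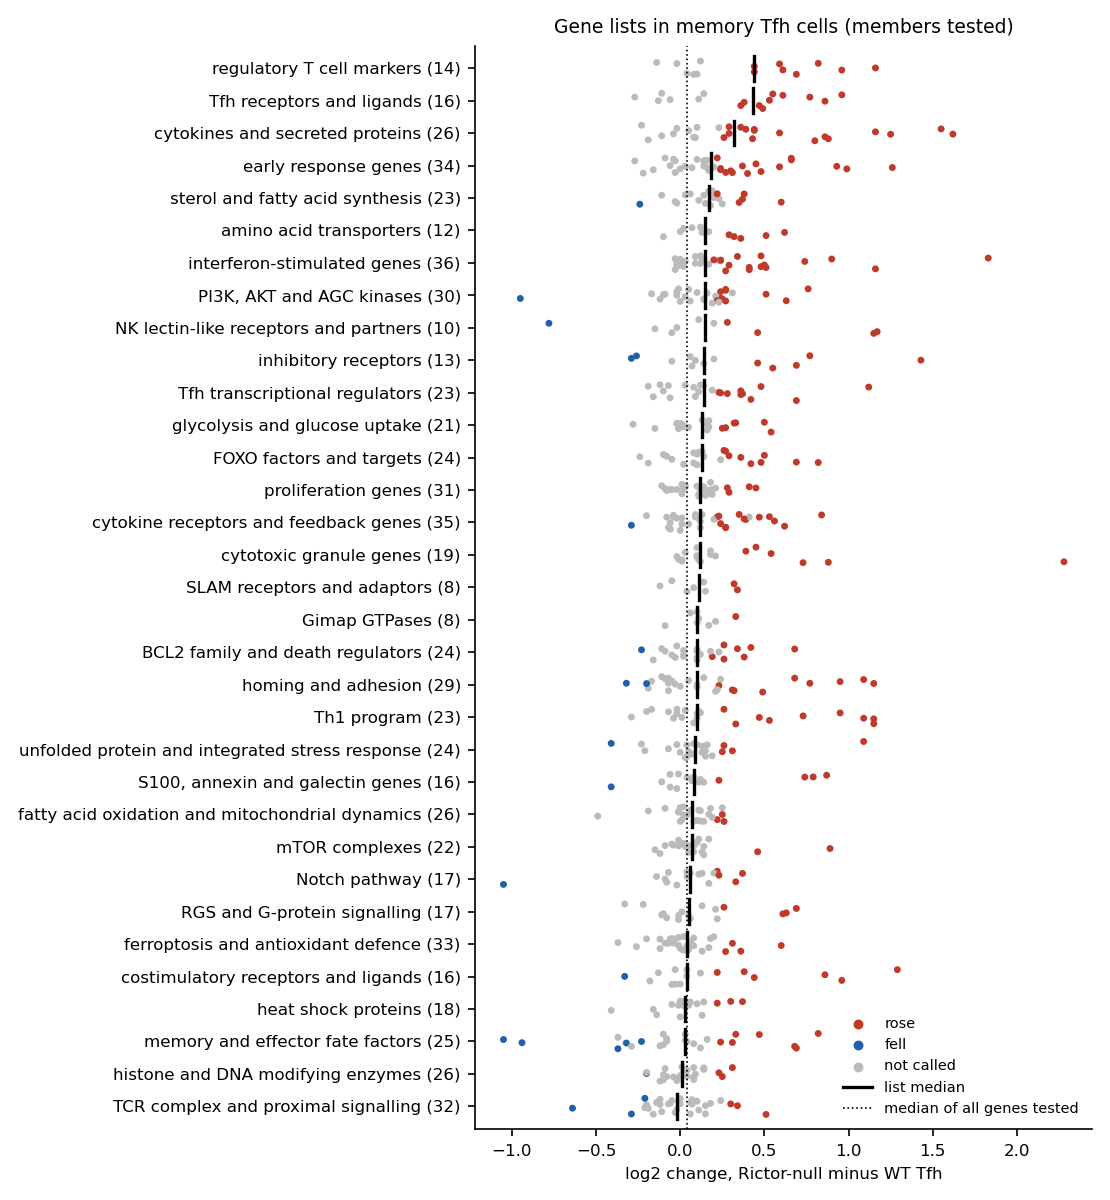
Log2 change between genotypes (horizontal axis) of each tested member of 33 gene lists, 1 row per list with the number of tested members in brackets, where black bars mark list medians and the dotted line the median of all genes (0.04). The rows of regulatory T cell markers, Tfh receptors and ligands and cytokines have the highest medians (0.44, 0.43 and 0.32), and the row of T cell receptor signalling has the lowest (-0.02). Rows share genes: Il10, Tnfrsf4 and Izumo1r each stand in the regulatory T cell row and in another of the highest rows.

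Markers of other cell types were mostly dim. Of 11 B cell markers on the array 4 passed the filter; the defining genes Ms4a1 (17.2 to 27.0) and Pax5 (25.3 to 33.3) did not, and the summed signal was 2737 and 3104 against 2549 and 2484, most of it from Ighm (2225 and 2525 against 1979 and 1925). Ighm rose by 0.28 ± 0.068, but not without null-2 (adjusted p = 0.129), WT-1 (0.112) or WT-2 (0.168). Summed signals of 6 plasma cell markers were 1610 and 1502 against 1447 and 1409, and of 12 dendritic cell markers 605 and 571 against 481 and 491, of which Bst2, also an interferon-stimulated gene, gave 199 and 163 against 80.6 and 83.2. Sums for 11 macrophage markers (512 and 521 against 546 and 563), 7 neutrophil markers (161 and 160 against 178 and 170), 8 erythroid and platelet markers (296 and 310 against 317 and 330) and 3 gamma delta T cell markers (176 and 166 against 233 and 227) were lower on the Rictor-null arrays. The macrophage sum included Ccr2, which fell as given above, while Cd68, a lysosomal protein of macrophages, rose by 0.38 ± 0.078 (74.8 and 91.8 against 52.2 and 60.3), though not without null-2 or WT-1. The defining plasma cell gene Jchain (12.9 to 19.2), macrophage gene C1qa (21.0 to 28.4) and neutrophil gene S100a8 (20.1 to 24.9) lay below the filter.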

How the data were processed

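RNA of the 4 Tfh and 4 Th1 arrays was analysed from the deposited table of probe set intensity on a linear scale, 45037 probe sets in all. The submitters' processing notes name MAS5 and RMA, with no version, role or order, and the sources used here do not state the scaling between arrays. Detection calls were not used here, and precision is limited by how many arrays there were. The platform annotation gave 1 symbol for 34945 probe sets, several for 932 and none for 9160; 34741 of the first matched RefSeq (GRCm38.p6) by gene ID. Values are log2(signal + 32). Probe sets above the array median on 2 or more of the 8 arrays were kept, and the brightest stood for its gene. A dim gene could thus be kept through the Rictor-null Tfh arrays alone, as Ascl2 was.

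The 4 group means were modelled over all arrays using limma 3.58.1 under R 4.3.3 (lmFit, contrasts.fit, eBayes; 4 residual and 6.7 prior degrees of freedom), tested on simulated data, with Benjamini-Hochberg adjustment over 11217 genes. No exact permutation test was run, since 2 against 2 arrays allow no two-sided p under 0.333. Named are the 25 largest rises and 20 largest falls whose arrays do not overlap, up to 6 passing members per list with the smallest p, defining members, Rictor, genes within 10 Mb of it and genes with most probe sets passing. The members, lists and rules were chosen with earlier results of these data known. Gene lists are described by counts, with no set test, and some genes belong to several lists, so the lists are not independent. The labels do not state whether equal replicate numbers pair the arrays, and no pairing was used in the reported fit. Same-numbered arrays of the 2 Tfh groups deviated with r = 0.276 and other pairs of groups with -0.514 to 0.172. With 2 arrays per group, these values can neither show nor exclude a pairing. At most 0.486% of values were identical between arrays, so none was counted as deposited again. Figures used matplotlib 3.10.9.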

Additional observations from a re-analysis of the deposited data

How the results depend on the processing

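The 1528 genes (1269 rises, 259 falls) became 947 (833 and 114) with the Tfh arrays alone and 1161 (725 and 436) after quantile normalization. They became 1543 (634 and 909) after median centring and 1111 (960 and 151) with the replicate number as a block, a pairing the labels do not state. A larger pseudocount gave 1353 (1189 and 164). Leaving out 1 of the 8 arrays gave 456 to 2839 genes, 427 to 2070 rises and 29 to 769 falls; the extremes are those without WT-1 and without null-1. With 1 array left, a group adds nothing to the estimate of spread and is assumed to vary like the others. The remaining settings stayed within 1.5 times of each count: array weights (1291), a filter on all 8 arrays (1333), no filter (1361), a smaller pseudocount (1434), a trended and robust prior (1610) and the mean of probe sets (1813).

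Of 187 named genes that passed, 0 changed sign under these settings, with 174 of them tested under the filter on all 8 arrays. Of all 1528, 4 had the opposite sign as the mean of probe sets and 0 in the other settings, among the genes tested there. Calls lost numbered 28 with the Tfh arrays alone, 33 after quantile normalization, 33 after centring, 17 with the block, 66 without WT-1, 64 without WT-2, 43 without null-2 and 6 without null-1; the cause was not tested. With 2 arrays per group the fit rests on pooled spread, and genes near the array median are measured close to background.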

Other observations

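Changes were spread over the genome. On the 19 autosomes and X, the share of tested genes that passed ran from 11% on chromosome 14 (34 rises and 7 falls among 372) to 15.4% on chromosome 3 (69 and 14 among 540), against 13.6% overall. Chromosome 15, which carries Rictor (6708349 to 6800401, GRCm38.p6), had 11.8% (48 and 7 among 465). Within 10 Mb of Rictor, 1 of 31 tested genes rose (3.23%) and 0 fell. It was Nadk2, a mitochondrial NAD kinase (chromosome 15, 9071260 to 9110496), with signals of 96.6 and 105 in Rictor-null and 73.2 and 77.6 in WT Tfh cells, a limma change of 0.31 ± 0.076 (adjusted p = 0.0237). It did not pass without the Rictor-null array null-2 (0.117) or the WT arrays WT-1 (0.168) and WT-2 (0.108), nor after quantile normalization (0.0536) or centring (0.08). Xist, which female cells transcribe from the inactive X, had 5556 and 5568 against 5172 and 5343 (0.08 ± 0.054), a high signal on all 4 Tfh arrays.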
